A study of Homo sapiens with 32 samples.

Results

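The 40 genes described here encode proteins of the G2 phase and of mitosis. They were taken as a fixed list of gene symbols, and all 40 were found among the 18980 coding genes of each file. Their RNA was measured by RNA-seq in RH4, an established cell line from a human alveolar rhabdomyosarcoma. Of 32 samples in the series, the 20 RNA-seq libraries were used. The treatments were JQAD, IHK-44, dCBP and A485. Each was given at 2 doses, 100 nM and 1 uM, with RNA taken after 2 h and after 6 h, in 16 libraries. The series describes the compounds together as inhibitors or degraders of CBP/p300. The other 4 libraries were DMSO, the solvent, at 2 h and 6 h, and NT, a name the labels do not spell out, at 2 h and 6 h. No genotype, allele or second agent is labelled, and all groups come from the same line. Each condition had 1 library, so both doses of a compound at one time stood in for replicates, and DMSO and NT of the same time stood in for replicate controls. The p-values therefore measure only the spread between these libraries.

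CBP and p300 are closely related acetyltransferases that acetylate histones at enhancers and promoters and act as coactivators of transcription. A485 is known as an inhibitor of their catalytic domain. Mitotic genes are expressed in a wave in dividing cells. In resting and early cycling cells the DREAM complex, which holds MuvB proteins, represses them through a promoter element called the CHR. In G2 the same MuvB core joins B-MYB and FOXM1 and activates them, together with NF-Y, which binds CCAAT boxes. The products start mitosis (cyclin B with CDK1, and the CDC25 phosphatases that activate it), attach chromosomes to the spindle (kinetochore proteins and kinesins), delay anaphase until all are attached (the spindle assembly checkpoint), and then separate the chromosomes and the daughter cells. In bulk RNA, fewer cells in G2 or mitosis and less of these RNAs per cell cannot be told apart.

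Library sizes ran from 13466631 to 16799327 expected counts over the coding genes. Levels are given as CPM, a gene's count relative to the library's total over coding genes. The lowest value of any of the 40 genes in any library was 11.5 CPM, so all 40 passed the filters on low values. Per length, on the FPKM scale, their levels over the 4 control libraries ran from a mean of 404 for UBE2C, the ubiquitin-conjugating enzyme of the anaphase-promoting complex, to 7.26 for CDC25C. CDC20 followed UBE2C with a mean FPKM of 157, and NEK2 came just before CDC25C with 8.17. All 8 markers of rhabdomyosarcoma reached 1 CPM in the controls, with a summed level between 3050 and 3320 CPM. With dCBP and with IHK-44 at 6 h all 8 fell, and the lowest sum in a treated library was 1490 CPM. Of 9 markers of blood, epithelium and endothelium, 0 reached 1 CPM in the controls, their sums lay between 0.397 and 1.44 CPM there and between 0.59 and 1.86 CPM in treated libraries, and EPCAM and KRT5 were at 0 in all 20 libraries.

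Promoter windows of 300 bases (250 before to 50 after the start, RefSeq, GRCh38.p14) were listed for 33 of the 40 genes. The letters CCAAT, on either strand, were present for 29 of these 33 genes, or 87.9%, and for 42.5% of the 15027 genes listed. TTTGAA or TTCGAA, the core letters of the CHR on either strand, were present for 25 of 33, or 75.8%, and for 17.4% of all listed genes. Both kinds of match were present for 23 of 33 genes, or 69.7%, against 7.3% of all listed genes. The windows of the members with the largest falls, CDC25B and BUB1B, and the largest rises, CDC25C and NEK2, at 6 h are shown to set their letters side by side. They are written 5′ to 3′ along the gene, and the capitals mark the matches, CCAAT (or ATTGG on the other strand) and the CHR core (or TTCAAA on the other strand), which do not overlap here. Where a gene had several windows, the one with the most matches is shown. The windows lie at chr20:3796060-3796359 on the plus strand (CDC25B, 1 of 4 listed windows), chr15:40160819-40161118 on the plus strand (BUB1B), chr5:138331828-138332127 on the minus strand (CDC25C, 1 of 4 listed windows) and chr1:211675572-211675871 on the minus strand (NEK2).
CDC25B: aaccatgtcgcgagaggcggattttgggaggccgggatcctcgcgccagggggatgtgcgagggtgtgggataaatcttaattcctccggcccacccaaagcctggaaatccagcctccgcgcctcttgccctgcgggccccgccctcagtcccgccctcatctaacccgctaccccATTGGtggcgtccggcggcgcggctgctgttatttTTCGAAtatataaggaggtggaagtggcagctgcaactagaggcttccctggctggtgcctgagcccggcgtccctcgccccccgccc
BUB1B: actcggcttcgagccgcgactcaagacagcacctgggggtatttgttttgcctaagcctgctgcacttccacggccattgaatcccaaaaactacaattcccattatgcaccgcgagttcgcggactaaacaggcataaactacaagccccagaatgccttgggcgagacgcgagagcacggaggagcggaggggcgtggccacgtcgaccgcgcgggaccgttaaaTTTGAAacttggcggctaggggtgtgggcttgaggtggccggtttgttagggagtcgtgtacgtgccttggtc
CDC25C: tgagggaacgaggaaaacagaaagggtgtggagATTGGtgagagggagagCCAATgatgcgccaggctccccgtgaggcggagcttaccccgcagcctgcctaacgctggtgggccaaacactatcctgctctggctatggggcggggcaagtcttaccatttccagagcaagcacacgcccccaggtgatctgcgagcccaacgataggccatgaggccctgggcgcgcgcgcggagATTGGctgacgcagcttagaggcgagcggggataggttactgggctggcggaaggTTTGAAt
NEK2: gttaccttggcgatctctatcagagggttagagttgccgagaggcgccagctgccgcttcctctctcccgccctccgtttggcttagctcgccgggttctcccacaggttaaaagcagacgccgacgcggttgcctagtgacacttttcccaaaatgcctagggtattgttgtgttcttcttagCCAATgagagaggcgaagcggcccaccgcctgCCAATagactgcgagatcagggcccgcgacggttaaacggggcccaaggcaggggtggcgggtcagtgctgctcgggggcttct
The CDC25B and CDC25C windows shown hold both kinds of letters, with 1 and 3 CCAAT matches and 1 CHR core each. Of the 4 windows of CDC25B, 2 hold CCAAT and 1 a CHR core, and of the 4 windows of CDC25C, 2 hold both and the other 2 neither. The BUB1B window holds 1 CHR core and no CCAAT, and the NEK2 window 2 CCAAT matches and no CHR core. A match of letters is a description of the sequence and not evidence of a bound factor.

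DMSO and NT, used together as controls, were first compared with each other. NT differed from DMSO by at least 1.5-fold (0.58 on the log2 scale) for 0 of the 40 genes at 2 h and at 6 h. Over 12174 genes with a mean of at least 1 CPM, NT was that much lower than DMSO for 0.205% and higher for 2.27% at 2 h, and lower for 0.353% and higher for 0.427% at 6 h. By the quasi-likelihood test of edgeR (Benjamini-Hochberg adjusted), 0 of the 40 genes differed between NT and DMSO over both times (0.0% of 13260 genes tested, and 0 of the 40 at an unadjusted p under 0.05). The same count was 0 with a second scaling of the counts. The fitted differences ran from -0.13 to 0.19 on the log2 scale, and all 40 95% confidence intervals lay within 1.5-fold.

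At 2 h the mitotic genes held close to the control levels under every compound. CDC25B, the phosphatase that activates cyclin B and CDK1 early in mitosis, was lower in the CPM values of several libraries: it was at 361 in DMSO and 363 in NT, and at 294 and 315 with 100 nM and 1 uM dCBP. Levels of 330 and 321 were measured with IHK-44, 337 and 325 with A485, and 362 and 366 with JQAD. The 6 libraries of the first 3 compounds lay below both controls and the JQAD libraries did not, but no difference passed the test. BUB1B, a spindle checkpoint gene whose 2 h levels are given with its group, had the same 6 libraries below both controls. Its fitted log2 changes were -0.34 with dCBP and -0.35 with IHK-44, against -0.30 and -0.20 for CDC25B. With edgeR (Benjamini-Hochberg adjusted p under 0.05, against DMSO and NT of the same time), the count was 0 of 40 under each compound. Of all genes tested, A485 changed 0.0452%, dCBP 5.63%, IHK-44 4.88% and JQAD 0.0%. Counts of the 40 genes at an unadjusted p under 0.05 were 0, 4, 3 and 0 in the same order. DESeq2 and limma also called 0 with each compound. The median log2 change of the 40 genes was -0.05 (A485), -0.07 (dCBP), -0.02 (IHK-44) and -0.02 (JQAD), beside 0.00, 0.02, 0.01 and 0.00 over all genes tested. The lowest fitted value was -0.35, of BUB1B with IHK-44, and the highest was 0.27, of NEK2 with IHK-44.

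At 6 h, dCBP and IHK-44 changed about 1 in 3 of the mitotic genes, most of them upward, while CDC25B fell. With dCBP, 3 of 40 genes fell and 10 rose, which is 32.5% beside 45.5% of all 13260 genes (22.4% lower and 23.2% higher). With IHK-44, 2 fell and 12 rose, which is 35.0% beside 42.1% of all genes (21.4% lower and 20.7% higher). A485 gave 1 lower and 1 higher (5.0%, beside 16.6% of all genes), and JQAD gave 0 (0.0% of all genes, 0 of the 40 at an unadjusted p under 0.05, and 0 by DESeq2 and by limma). The share of mitotic genes called was thus at or below the share of all genes under each compound. Among 4830 other genes of like level, with a control mean between 45.1 and 395 CPM, dCBP changed 50.7%, IHK-44 46.0% and A485 19.1%.

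**Figure D1:**
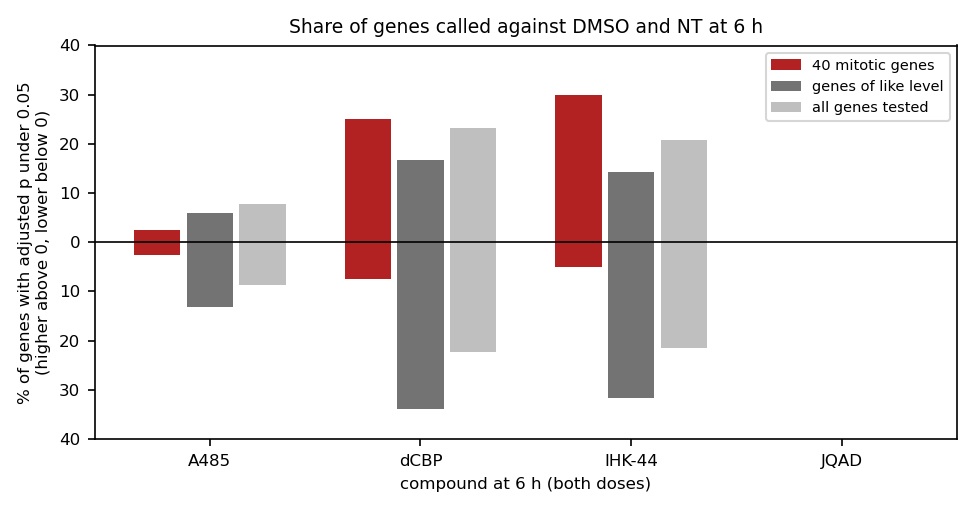
Share of genes with an edgeR adjusted p under 0.05 at 6 h for each compound (x axis), higher than DMSO and NT above the 0 line and lower below it (y axis, % of genes). Red bars are the 40 mitotic genes, dark grey bars the genes of like level and light grey bars all genes tested. With dCBP and IHK-44 most mitotic genes called are higher (10 of 13 and 12 of 14), and with JQAD none is called. Of all genes tested, 23.2% are higher and 22.4% lower with dCBP, and 20.7% and 21.4% with IHK-44.

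Most of the mitotic genes called with dCBP and IHK-44 were higher, 10 of 13 and 12 of 14. Their median log2 change at 6 h was 0.09 (dCBP), 0.17 (IHK-44), 0.09 (A485) and -0.07 (JQAD). Over all genes tested the medians were 0.06, 0.06, 0.02 and 0.00, and over genes of like level -0.08, -0.06, -0.05 and -0.01. The median gene was up to 0.22 above its control on the unadjusted log2(CPM + 1) scale at 6 h and at most 0.06 above it in the edgeR fit. limma on log2(CPM + 1), which keeps that shift, gave 1 lower and 19 higher with dCBP and 1 lower and 26 higher with IHK-44. These counts, and those below from fits that left out 1 library, are given without the share of all genes. They therefore do not set the mitotic genes against other genes. Leaving out 1 library moved the dCBP count from 13 to 27 without the 1 uM library at 6 h and to 8 without NT at 6 h. The IHK-44 count moved from 14 to 8 without DMSO at 6 h, and to 9 without NT at 6 h or without 100 nM IHK-44 at 6 h. A485 gave 0 calls without NT or without its 1 uM library at 6 h, 1 without DMSO at 6 h and 4 without its 100 nM library at 6 h.

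**Figure D2:**
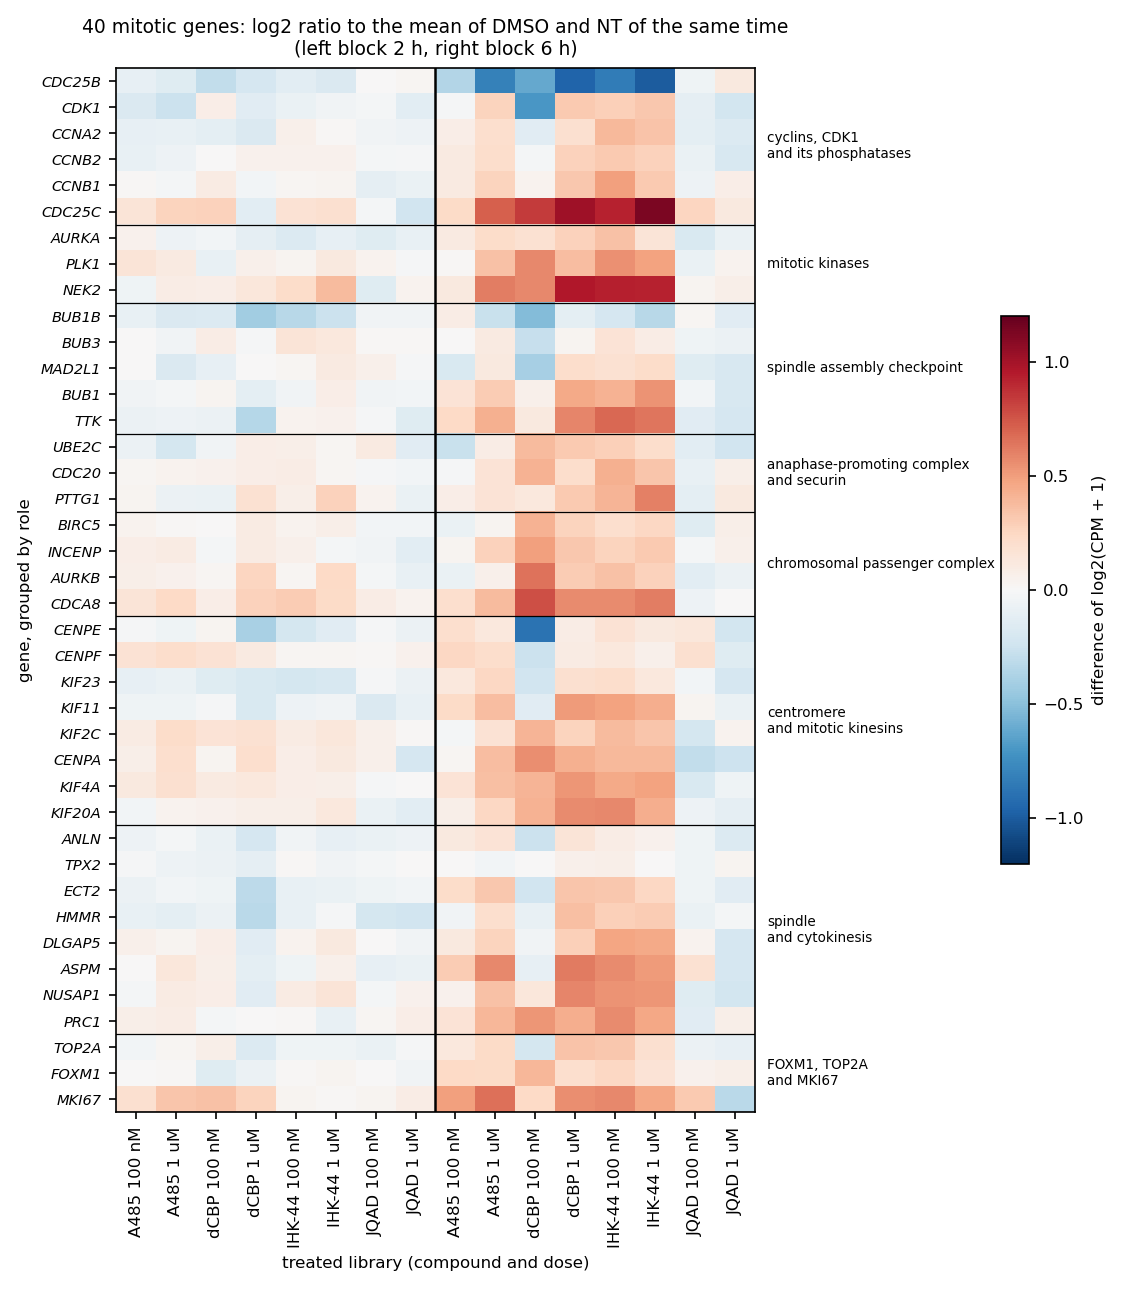
Log2 ratio of each of the 40 genes (rows, grouped by role) to the mean of DMSO and NT of the same time in each of the 16 treated libraries (columns, 2 h left and 6 h right), as a difference of log2(CPM + 1). Blue is lower and red higher: CDC25B is the bluest row at 6 h, CDC25C and NEK2 the reddest, and the 100 nM dCBP library at 6 h differs in colour from the 1 uM library beside it.

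Of the 6 cyclins, CDK1 and CDC25 phosphatases, CDC25B fell and CDC25C rose with dCBP and with IHK-44, and the other 4 did not pass. CDC25B stood at 346 CPM in DMSO and 376 in NT at 6 h, at 235 and 184 with 100 nM and 1 uM dCBP, at 201 and 180 with IHK-44, at 283 and 205 with A485, and at 349 and 392 with JQAD. All 6 libraries of the first 3 compounds lay below both controls, and the 1 uM value was the lower one of each pair. The fitted log2 change was -0.94 with dCBP (SE 0.15, edgeR Benjamini-Hochberg adjusted p = 0.000133), -1.09 with IHK-44 (SE 0.15, adjusted p = 3.64e-05) and -0.65 with A485 (SE 0.15, adjusted p = 0.011). With JQAD it was 0.03 (95% interval -0.28 to 0.35). The A485 call was lost without its 1 uM library (-0.39) and without NT at 6 h (-0.58).

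CDC25C, a second CDK1-activating phosphatase, rose where CDC25B fell. Its level at 6 h was 13 CPM in DMSO and 12.7 in NT, 23.7 and 27 with dCBP, 25.2 and 29.2 with IHK-44, 15.2 and 21.7 with A485, and 15.5 and 14.0 with JQAD. Every treated library at 6 h lay above both controls, with 1 uM JQAD and 100 nM A485 closest to them. The log2 change was 0.82 with dCBP (SE 0.15, edgeR adjusted p = 0.000492) and 0.91 with IHK-44 (SE 0.15, adjusted p = 0.000202). With A485 it was 0.43 (adjusted p = 0.0651) and with JQAD 0.20 (adjusted p = 1.0), neither of which passed. At 2 h the levels were 13.9 in DMSO, 13.3 in NT and between 11.5 and 16.7 over the 8 treated libraries.

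CDK1 and the cyclins CCNA2, CCNB1 and CCNB2 did not pass the test with any compound at 6 h. CDK1, the kinase that drives entry into mitosis, was at 85.8 CPM in DMSO and 82.9 in NT, at 51.3 and 105 with 100 nM and 1 uM dCBP, at 103 and 106 with IHK-44, at 83.9 and 102 with A485, and at 77.8 and 72.5 with JQAD. The dCBP doses lay on opposite sides of the controls, and the fitted change of -0.28 (95% interval -0.68 to 0.12) became 0.14 without the 100 nM library. CCNB1, the cyclin partner of CDK1 at mitotic entry, was at 184 and 181 CPM in the controls, at 187 and 229 with dCBP, at 256 and 226 with IHK-44, at 197 and 220 with A485, and at 175 and 193 with JQAD. Its largest fitted change was 0.23 with IHK-44 (SE 0.09, edgeR adjusted p = 0.0568). CCNA2, the cyclin of S phase and G2, was at 127 and 125 CPM in the controls, at 114 and 144 with dCBP, at 165 and 161 with IHK-44, at 133 and 145 with A485, and at 116 and 113 with JQAD, and the IHK-44 change of 0.20 had an edgeR adjusted p of 0.0678. At 2 h CDK1 lay between 65.0 and 82.3 CPM over the 10 libraries, CCNB1 between 180 and 208, and CCNA2 between 113 and 133.

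**Figure D3:**
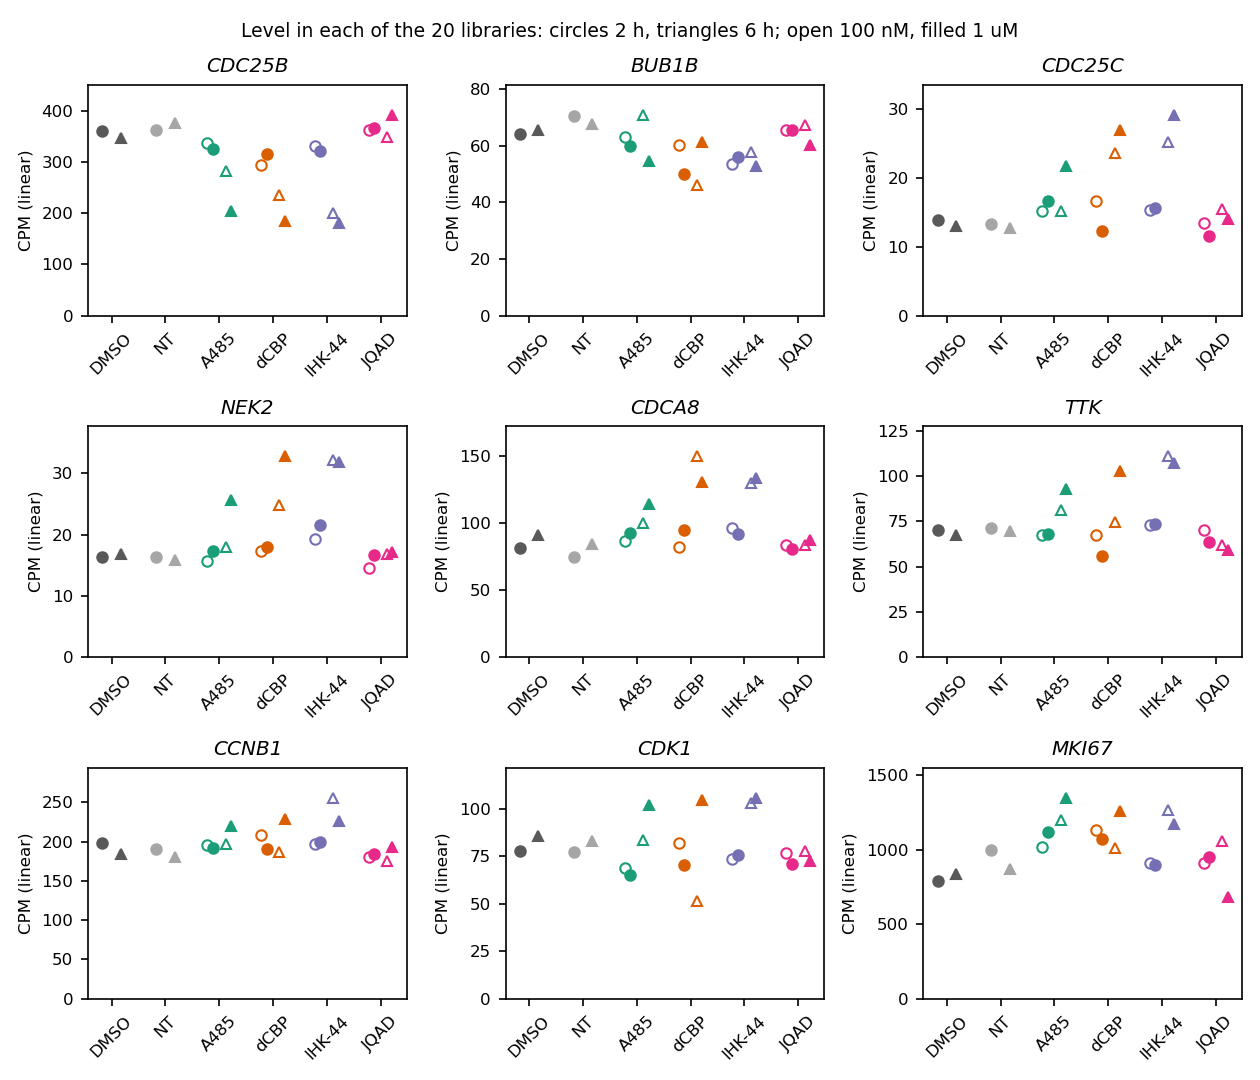
CPM on a linear scale from 0 (y axis) of 9 of the genes in each of the 20 libraries, by condition (x axis). Circles are 2 h and triangles 6 h, open symbols 100 nM and filled symbols 1 uM, and DMSO and NT are grey. The 6 h triangles of dCBP and IHK-44 lie below both grey triangles for CDC25B and BUB1B and above them for CDC25C, NEK2, CDCA8 and TTK, and the open dCBP triangle of CDK1 lies apart from the filled one.

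Of the 3 mitotic kinases, NEK2 and PLK1 rose with dCBP and with IHK-44 and AURKA did not pass. NEK2, a kinase that splits the centrosomes before mitosis, was at 16.9 CPM in DMSO and 15.9 in NT at 6 h, at 24.9 and 32.8 with dCBP, at 32.2 and 31.9 with IHK-44, at 17.9 and 25.6 with A485, and at 16.8 and 17.2 with JQAD. The dCBP, IHK-44 and A485 libraries lay above both controls, and 100 nM JQAD lay between them. The log2 change was 0.66 with dCBP (SE 0.14, edgeR adjusted p = 0.00149), 0.80 with IHK-44 (SE 0.14, adjusted p = 0.000311), 0.32 with A485 (adjusted p = 0.133) and 0.05 with JQAD. At 2 h NEK2 was at 16.3 CPM in both controls and reached 21.5 with 1 uM IHK-44, the highest of the 2 h libraries.

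PLK1, the kinase that acts from mitotic entry to cytokinesis, was at 121 and 132 CPM in DMSO and NT at 6 h, at 189 and 164 with dCBP, at 186 and 177 with IHK-44, at 127 and 161 with A485, and at 119 and 130 with JQAD. Its change was 0.33 with dCBP (SE 0.11, edgeR adjusted p = 0.0207) and 0.35 with IHK-44 (SE 0.11, adjusted p = 0.0146), and each call was lost in 2 of 4 fits that left out 1 of the libraries compared. AURKA, the kinase of the spindle poles, was at 147 and 155 CPM in the controls, at 171 and 184 with dCBP, at 192 and 168 with IHK-44, at 163 and 176 with A485, and at 133 and 142 with JQAD. The fitted changes of AURKA were 0.08, 0.09, 0.08 and -0.14, each with an SE of 0.09, and none passed. Over the 10 libraries at 2 h PLK1 lay between 114 and 135 CPM and AURKA between 131 and 151.

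The spindle assembly checkpoint genes split. BUB1B, which encodes the checkpoint protein BUBR1, was at 65.4 CPM in DMSO and 67.8 in NT at 6 h, at 46.0 and 61.3 with dCBP, at 57.9 and 52.9 with IHK-44, at 71.0 and 54.8 with A485, and at 67.3 and 60.3 with JQAD. It fell by 0.47 on the log2 scale with dCBP (SE 0.14, edgeR adjusted p = 0.0132) and by 0.43 with IHK-44 (SE 0.14, adjusted p = 0.0215). The dCBP call was lost without the 100 nM library (-0.29) and without NT at 6 h (-0.44), and the IHK-44 call without 1 uM IHK-44 (-0.35), without NT (-0.40) and without DMSO (-0.45) at 6 h. At 2 h BUB1B was at 64.2 and 70.5 CPM in the controls and at 60.2 and 49.9 with dCBP, 53.4 and 56.0 with IHK-44, 63.2 and 59.8 with A485, and 65.4 and 65.6 with JQAD, and no difference passed.

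BUB3, a partner of BUB1 and BUBR1, was at 190 and 178 CPM in the controls at 6 h, at 151 and 188 with dCBP, at 205 and 196 with IHK-44, at 184 and 199 with A485, and at 177 and 175 with JQAD. It fell by 0.28 with dCBP (SE 0.09, edgeR adjusted p = 0.0172), where only the 100 nM library lay below both controls, and the call was lost without that library (-0.14) and without DMSO at 6 h (-0.23). TTK, the checkpoint kinase MPS1, was at 67.4 and 69.4 CPM in the controls, at 74.4 and 103 with dCBP, at 111 and 107 with IHK-44, at 81.1 and 92.6 with A485, and at 62.1 and 59.4 with JQAD. It rose by 0.50 with IHK-44 (SE 0.12, edgeR adjusted p = 0.00251), and the changes of 0.21 with dCBP (adjusted p = 0.141) and 0.26 with A485 (adjusted p = 0.134) did not pass.

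BUB1, the checkpoint kinase of the kinetochore, was at 121 and 120 CPM in the controls at 6 h, at 125 and 165 with dCBP, at 162 and 176 with IHK-44, at 135 and 148 with A485, and at 118 and 105 with JQAD. It rose with IHK-44 by 0.32 (SE 0.10, edgeR adjusted p = 0.016), a call that held in 1 of 4 fits that left out a library. The dCBP change of 0.11 did not pass, but it was 0.28 and did pass without the 100 nM library. MAD2L1, the inhibitor that binds CDC20, did not pass with any compound. At 2 h the ranges over the 10 libraries were 174 to 198 CPM for BUB3, 55.7 to 73.5 for TTK and 103 to 118 for BUB1.

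Of the anaphase-promoting complex group, CDC20, UBE2C and securin (PTTG1), 0 of 3 were called with dCBP and only PTTG1 rose with IHK-44, a call that held in 1 of 4 fits that left out a library. CDC20, the activator that the checkpoint holds back, was at 237 and 242 CPM in the controls at 6 h, at 322 and 276 with dCBP, at 323 and 300.0 with IHK-44, at 238 and 267 with A485, and at 225 and 251 with JQAD. Both doses of dCBP and IHK-44 lay above both controls on this scale, but the fitted changes of 0.17 (edgeR adjusted p = 0.156) and 0.21 (adjusted p = 0.0767) did not pass. At 2 h CDC20 lay between 226 and 246 CPM.

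The chromosomal passenger complex, which corrects faulty spindle attachments and later acts in cytokinesis, had 3 of 4 members higher with dCBP and 1 with IHK-44. CDCA8 (borealin) was at 90.8 CPM in DMSO and 84.2 in NT at 6 h, at 150 and 131 with dCBP, at 130 and 134 with IHK-44, at 100 and 114 with A485, and at 84.0 and 87.1 with JQAD. It rose by 0.52 with dCBP (SE 0.10, edgeR adjusted p = 0.000493) and by 0.42 with IHK-44 (SE 0.10, adjusted p = 0.00266). AURKB, the kinase of the complex, was at 43.8 and 44 CPM in the controls, at 69.3 and 54.2 with dCBP, at 56.1 and 53.5 with IHK-44, at 41.5 and 45.9 with A485, and at 40.2 and 41.8 with JQAD. It rose by 0.34 with dCBP (SE 0.13, edgeR adjusted p = 0.0365), which held in 1 of 4 fits that left out a library, and the 0.15 with IHK-44 did not pass. INCENP, the scaffold, also rose with dCBP (in 1 of 4 such fits), and BIRC5 (survivin) did not pass. At 2 h CDCA8 lay between 74.6 and 96.4 CPM and AURKB between 37.9 and 48.7.

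Of 8 centromere proteins and mitotic kinesins, CENPA, KIF20A and KIF4A rose with dCBP, KIF20A and KIF4A rose with IHK-44, and none fell. KIF20A, a kinesin of the central spindle, was at 69.1 and 73.0 CPM in the controls at 6 h, at 95.3 and 106 with dCBP, at 107 and 97.0 with IHK-44, at 74.6 and 84.9 with A485, and at 68.1 and 65.9 with JQAD. Its change was 0.34 with dCBP (SE 0.08, edgeR adjusted p = 0.00288) and 0.35 with IHK-44 (SE 0.08, adjusted p = 0.00261), where the call was lost without 100 nM IHK-44 (0.26). CENPA, the histone of the centromere, held its dCBP call in 2 of 4 such fits. CENPE, a large kinesin of the kinetochore, was at 196 and 205 CPM in the controls, at 108 and 213 with dCBP, at 225 and 218 with IHK-44, at 230 and 219 with A485, and at 221 and 172 with JQAD. The lowest library was 100 nM dCBP, and 1 uM JQAD also lay below both controls. The fitted dCBP change of -0.49 (edgeR adjusted p = 0.0591) was -0.09 without the 100 nM dCBP library and -1.02 without the 1 uM dCBP library. At 2 h KIF20A lay between 64.4 and 77.3 CPM and CENPE between 134 and 190.

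Of 8 spindle and cytokinesis genes, PRC1, which bundles microtubules of the central spindle, rose with dCBP, and PRC1, NUSAP1 and DLGAP5 rose with IHK-44. The PRC1 call did not hold in every fit that left out a library, with either compound. The NUSAP1 and DLGAP5 calls held in 0 of 4 fits that left out a library. TPX2, ANLN, ECT2, HMMR and ASPM passed with neither compound. FOXM1, TOP2A and MKI67 did not pass with dCBP or IHK-44. FOXM1, the transcription factor of the G2 programme, was at 177 and 179 CPM in the controls at 6 h, at 236 and 205 with dCBP, at 212 and 199 with IHK-44, at 210 and 208 with A485, and at 184 and 186 with JQAD. All 8 treated libraries lay above both controls, but the fitted changes of 0.15, 0.04, 0.15 and 0.05, each with an SE of 0.09, did not pass.

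TOP2A, the topoisomerase that untangles chromosomes, was at 671 and 644 CPM in DMSO and NT at 6 h, at 566 and 833 with dCBP, at 822 and 752 with IHK-44, at 719 and 773 with A485, and at 627 and 612 with JQAD. The fitted changes lay between -0.09 and 0.09. MKI67, the proliferation marker Ki-67, was at 838 and 870 CPM in the controls, at 1010.0 and 1260.0 with dCBP, at 1270.0 and 1170.0 with IHK-44, at 1200.0 and 1350.0 with A485, and at 1060.0 and 682 with JQAD. It was the 1 member that rose with A485, by 0.49 (SE 0.15, edgeR adjusted p = 0.0341). That call was lost without NT (0.52), without DMSO (0.47) or without 1 uM A485 (0.45) at 6 h, and at 2 h DMSO (792) and NT (999) already differed by 0.34 on the log2(CPM + 1) scale, the largest gap of the 40 genes. FOXM1 at 2 h lay between 169 and 192 CPM, TOP2A between 563 and 660, and MKI67 between 792 and 1130.0.

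CDC25B, CDC25C, NEK2 and CDCA8 were called with both dCBP and IHK-44 in all 4 fits that left out a library and in all 7 other settings. On the authors' TPM, whose coding share differed between libraries, these 4 kept their direction at 6 h with both compounds. KIF4A and DLGAP5, which rose with IHK-44 in the edgeR fit, were at -0.01 on TPM. Other genes that rose came close to 0 there, such as PLK1 with dCBP at 0.00 and PRC1 with IHK-44 at 0.03. The median gene was itself at -0.22 on TPM in both IHK-44 libraries, and at -0.41 and -0.04 with 100 nM and 1 uM dCBP. Once TPM was centred on it, KIF4A and DLGAP5 were at 0.21 with IHK-44. PRC1 was then at 0.25 with IHK-44 and PLK1 at 0.23 with dCBP.

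Read library by library, few values passed 1.5-fold at 6 h. Relative to the mean of DMSO and NT, 100 nM dCBP had 3 genes lower (CDC25B, CDK1 and CENPE, beside 13.7% of 12174 genes) and 3 higher (AURKB, CDC25C and CDCA8, beside 21.5%). For 1 uM dCBP the numbers were 1 lower (10.6% of all) and 5 higher (19.1%), for 100 nM IHK-44 1 lower (11.2%) and 3 higher (15.2%), for 1 uM IHK-44 1 lower (11.7%) and 5 higher (20.5%), and for 1 uM A485 1 lower (9.06%) and 3 higher (13.9%). The single lower gene was CDC25B each time. The 100 nM A485 library had 0 of either kind (2.41% and 3.75% of all), both JQAD libraries had 0 (0.205% and 2.31% at 100 nM, 0.337% and 0.353% at 1 uM), and all 8 libraries at 2 h had 0. Over all genes at 2 h the shares lower and higher were 1.02% and 0.928% with 100 nM A485, 3.63% and 4.24% with 1 uM A485, 3.43% and 4.43% with 100 nM dCBP, and 4.21% and 6.17% with 1 uM dCBP. They were 3.7% and 2.67% with 100 nM IHK-44, 4.02% and 5.08% with 1 uM IHK-44, 0.304% and 0.131% with 100 nM JQAD, and 0.838% and 0.14% with 1 uM JQAD.

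Both IHK-44 libraries at 6 h lay above both controls for 37 of the 40 genes (59.5% of all genes) and below them for 2, CDC25B and BUB1B (26.5%). For dCBP the numbers were 22 above (50.4%) and 2 below (23.4%), and for A485 26 above (42.5%) and 1 below (24.3%). JQAD had 2 above (12.9%) and 18 below (17.5%). At 2 h the numbers above and below were 14 and 11 with IHK-44 (40.1% and 21.0% of all genes), 7 and 11 with dCBP (36.8% and 21.2%), 11 and 11 with A485 (32.5% and 20.2%), and 0 and 13 with JQAD (10.0% and 20.7%). Once each library at 6 h was centred on its median gene, 26 lay above and 5 below with IHK-44 (40.5% and 41.1% of all genes). With dCBP 14 lay above and 8 below (34.3% and 35.0%), so the number above was near the share of all genes. The numbers were 21 and 5 with A485 (32.9% and 33.5%), and 3 and 17 with JQAD (14.7% and 15.5%). The summed level of the 40 genes was between 6900 and 7100 CPM in the 4 controls, 8570 with 1 uM dCBP, 7330 with 100 nM dCBP, 8740 and 8330 with 100 nM and 1 uM IHK-44, 7700 and 8340 with A485, and 7050 and 6580 with JQAD at 6 h.

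**Figure D4:**
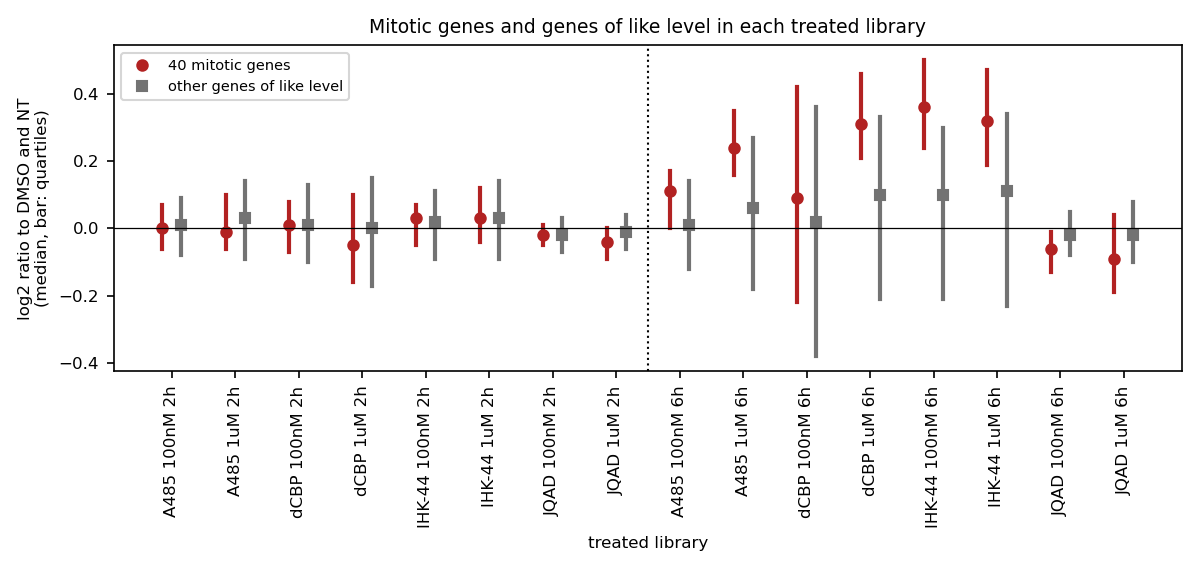
Median log2 ratio to DMSO and NT of the same time (y axis, difference of log2(CPM + 1), bars from the lower to the upper quartile) in each treated library (x axis, 2 h left and 6 h right) for the 40 mitotic genes (red circles) and 4830 genes of like level (grey squares). At 6 h the mitotic medians are 0.31 with 1 uM dCBP, 0.36 with 100 nM IHK-44 and 0.32 with 1 uM IHK-44, beside 0.10, 0.10 and 0.11 for genes of like level.

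The compounds were next compared directly at matched doses, in 6 pairs at each of 2 times, without the controls. At 2 h, 0 of 40 genes differed in any pair by edgeR, DESeq2 or limma (for all genes, edgeR gave 0.0151% to 0.0226% for the pairs with A485, 0.0% for dCBP with IHK-44, and 4.45% and 5.54% for IHK-44 and dCBP with JQAD). At 6 h most calls came from the pairs of dCBP and IHK-44 with JQAD, at a rate near that of all genes. dCBP was lower than JQAD for 2 genes and higher for 15. Of all genes 43.1% differed in this pair, 21.3% lower and 21.7% higher. IHK-44 was lower than JQAD for 2 and higher for 16, beside 41.7% of all genes (21.4% lower and 20.3% higher). The CDC25B difference was -0.97 with dCBP (95% interval of the difference -1.29 to -0.65, edgeR adjusted p = 0.000108) and the difference with IHK-44 was -1.12 (-1.44 to -0.80, adjusted p = 3.07e-05). NEK2 was 0.61 higher with dCBP (0.30 to 0.91, edgeR adjusted p = 0.00288) and 0.75 higher with IHK-44 (0.45 to 1.05, adjusted p = 0.000547). A485 differed from JQAD in 4 genes (14.0% of all), lower for CDC25B and higher for KIF4A, MKI67 and TTK.

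dCBP and IHK-44 could not be told apart by the test at 6 h: 0 of 40 genes differed with edgeR (0.00754% of all genes), and 0 with DESeq2 or limma. At an unadjusted p under 0.05 edgeR gave 9, all lower with dCBP, among them CCNA2 with a difference of -0.33 (95% interval -0.51 to -0.15). Intervals of 38 of the 40 genes lay within 1.5-fold, and those of CDK1 and CENPE did not. Without 1 uM dCBP at 6 h the count was 19. A485 was lower than IHK-44 for 3 genes and higher for 0 (12.9% of all): CDC25C by 0.48 (SE 0.15, edgeR adjusted p = 0.0454), NEK2 by 0.48 (SE 0.14, adjusted p = 0.0324) and KIF20A by 0.27 (SE 0.08, adjusted p = 0.0366). That count was 7 without 1 uM A485, and 0 without 100 nM A485 or either IHK-44 library. A485 was lower than dCBP for 5 genes (AURKB, BIRC5, CDCA8, KIF20A and UBE2C) and higher for 3 (BUB3, CENPE and CENPF), beside 26.6% of all genes, and this count was 22 without 1 uM dCBP, 1 without 100 nM dCBP and 0 without 100 nM A485. Without 1 uM A485 or 1 uM JQAD the count of A485 against JQAD was 0, without 100 nM A485 it was 8, and without 100 nM JQAD 2. The count of dCBP against JQAD was 27 without 1 uM dCBP and 11 without 100 nM JQAD.

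A p above the threshold does not show that a gene held still, so the intervals were read as well. Against the controls, all 40 intervals lay within 1.5-fold with JQAD at both times. The bounds with JQAD ran from -0.46 to 0.40 at 2 h and from -0.58 to 0.53 at 6 h. At 6 h 35 of 40 lay within 1.5-fold with A485, 31 with dCBP and 30 with IHK-44. At 2 h the numbers were 39, 37 and 38.

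The response at 6 h was set against that at 2 h in the same fit. CDC25C moved further up at 6 h with dCBP, by 0.78 (SE 0.22, edgeR adjusted p = 0.0376), the 1 of 40 genes that passed (9.06% of all genes). With IHK-44, 3 of 40 passed (9.89% of all): CDC25B by -0.89 (SE 0.21, edgeR adjusted p = 0.0141), CDC25C by 0.77 (SE 0.22, adjusted p = 0.0351) and PRC1 by 0.43 (SE 0.13, adjusted p = 0.0491). A485 gave 0 (0.00754% of all, 2 at an unadjusted p under 0.05) and JQAD 0 (0.0%, 0 at an unadjusted p), and DESeq2 and limma gave 0 for both. Leaving out 1 library moved the counts to between 0 and 9 with dCBP and between 0 and 2 with IHK-44, while the fitted values kept their direction: -1.0 to -0.79 for CDC25B, 0.68 to 0.86 for CDC25C and 0.36 to 0.52 for PRC1 with IHK-44, and 0.58 to 1.03 for CDC25C with dCBP. The dCBP count was 9 without 1 uM and 7 without 100 nM dCBP at 6 h, and 0 without any of the 4 controls or without 1 uM dCBP at 2 h. The IHK-44 count was 0 without DMSO or NT at 2 h, without NT at 6 h, without 1 uM IHK-44 at 6 h or without 100 nM IHK-44 at 2 h, and 1 without DMSO at 6 h or without 1 uM IHK-44 at 2 h. The A485 count was 1 without 100 nM A485 at 6 h.

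The dose was tested within each compound over both times. With edgeR, 0 of 40 genes differed between 1 uM and 100 nM with A485 (0.929% of 13137 genes), IHK-44 (0.107%), dCBP (0.0%) or JQAD (0.0%), and DESeq2 and limma gave 0 as well. At an unadjusted p under 0.05 there was 1 gene with A485, CDC25B (-0.33, 95% interval -0.64 to -0.02), 1 with dCBP, MAD2L1 (0.34, 0.01 to 0.67), and 0 with IHK-44 and JQAD. All 40 intervals with IHK-44 lay within 1.5-fold.

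At 6 h the dCBP doses differed more over the 40 genes than those of the other compounds, but not over all genes. The 1 uM minus 100 nM difference of log2(CPM + 1) over the 40 genes had a median of 0.31 and an SD of 0.34 with dCBP, against -0.05 and 0.09 with IHK-44, 0.16 and 0.18 with A485, and -0.04 and 0.18 with JQAD. Over all 12174 genes the median and SD were 0.01 and 0.35 with dCBP and 0.10 and 0.37 with A485, and 8.49% and 9.6% were past 1.5-fold in either direction. Over genes of like level the SDs were 0.33 and 0.32, and 6.46% and 6.19% were past it. With dCBP 5 of 40 genes were at least 1.5-fold higher at 1 uM, namely CDK1 (1.02), CENPE (0.97), ASPM (0.72), KIF11 (0.65) and MAD2L1 (0.62), beside 810 of 12174 genes and 282 of 4830 genes of like level. AURKB and CDC25B had the lowest difference (-0.35 each). Across genes the dCBP difference at 6 h followed the log10 of transcript length with a Pearson r of 0.43 over the 40 genes, 0.35 over genes of like level and 0.30 over all 12174 genes. At 2 h the same r for dCBP had the opposite sign, -0.43, -0.45 and -0.34. With JQAD r was -0.59, -0.57 and -0.36 at 6 h and 0.43, 0.39 and 0.28 at 2 h. Genes share the libraries compared and are not independent replicates, so these are descriptions. The part of length in the differences between doses was not tested.

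**Figure D5:**
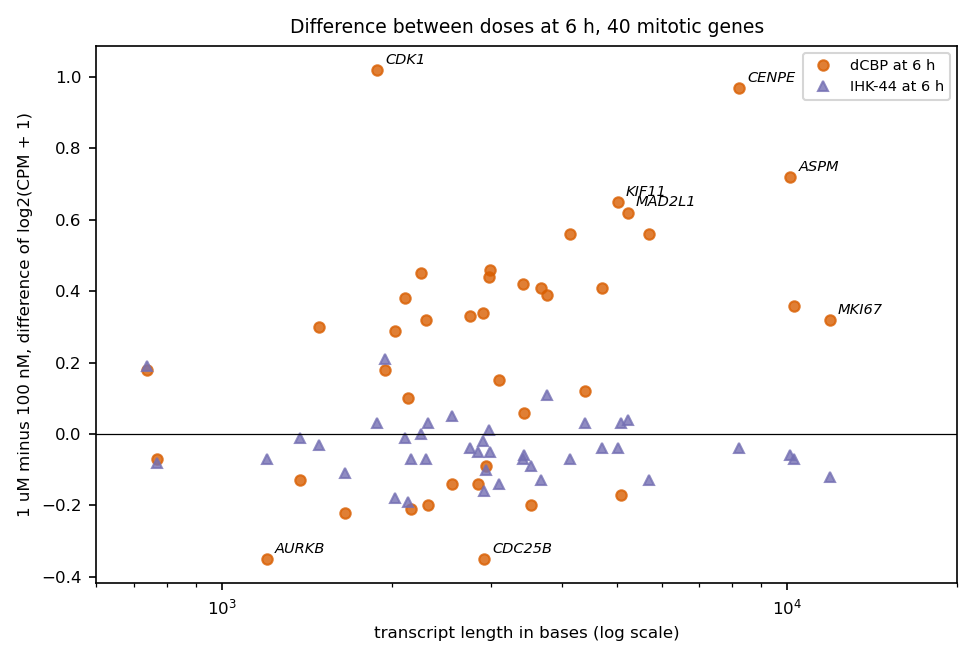
Difference between 1 uM and 100 nM at 6 h (y axis, difference of log2(CPM + 1)) of the 40 genes against transcript length in bases (x axis, log scale), for dCBP (orange circles) and IHK-44 (violet triangles). The IHK-44 points stay near 0 (median -0.05), and the dCBP points spread up to 1.02 for CDK1, with CENPE and ASPM, both long, at 0.97 and 0.72.

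Other genes of the same pathways, in lists chosen for their function, were counted in the same fit at 6 h. The count of each list stands beside 22.4% of all genes lower and 23.2% higher with dCBP. With IHK-44 these shares were 21.4% and 20.7%. Single genes were named mainly for a low adjusted p with dCBP and do not stand for their list. The G2 checkpoint and mitotic entry list of 13 genes had 5 lower and 2 higher with dCBP and with IHK-44 (45.5% and 42.1% of all genes called in either direction), and its medians were -0.01 and -0.13. WEE1, the kinase that inhibits CDK1, was at 160 and 158 CPM in DMSO and NT, at 74.1 and 78.8 with 100 nM and 1 uM dCBP, and at 94.5 and 77.6 with IHK-44. It fell by 1.22 with dCBP (SE 0.16, edgeR adjusted p = 2.56e-05), by 1.05 with IHK-44 (SE 0.16, adjusted p = 7.81e-05) and by 0.54 with A485 (SE 0.16, adjusted p = 0.0282), so this inhibitor of CDK1 and the activator CDC25B both fell. GADD45A, a stress-induced gene that acts at the G2 checkpoint, was at 65.4 and 65.1 CPM in the controls and at 14.6 to 20.7 over the 4 dCBP and IHK-44 libraries, and it fell by 1.90 and 2.17 (edgeR adjusted p = 0.00017 and 5.51e-05). GADD45G of the same family fell by 2.97 and 3.21 (adjusted p = 0.000398 and 0.000203), and GTSE1, a microtubule protein of G2 and S phase, rose by 0.41 and 0.43 (adjusted p = 0.000456 and 0.000389). The other genes of this list that passed with both were CDKN1A and GADD45B, lower, and CDC25A, higher.

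The MuvB, DREAM and E2F list of 18 had 5 lower and 3 higher with dCBP and 4 and 4 with IHK-44. In either direction this was near the share of all genes called (45.5% and 42.1%). LIN52, a MuvB subunit, rose by 0.72 and 0.64 (edgeR adjusted p = 0.000197 and 0.000517), E2F1 rose by 0.62 and 0.35 (adjusted p = 0.00106 and 0.0369), E2F3 fell by 0.56 and 0.53 (adjusted p = 0.000278 and 0.000415), and E2F5 fell by 1.40 and 0.64 (adjusted p = 0.000273 and 0.0322). The anaphase-promoting complex list of 17 had 2 lower and 4 higher with dCBP and 1 and 5 with IHK-44. Among them UBE2S, which extends ubiquitin chains for the complex, rose by 0.66 and 0.43 and FZR1, its activator in late mitosis and G1, by 0.40 and 0.33, while the subunit ANAPC13 fell by 0.53 and 0.46. CDC27, a further subunit, fell by 0.42 with dCBP and had -0.08 with IHK-44, which did not pass.

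Of 15 outer kinetochore genes, 3 fell and 2 rose with dCBP, and 3 fell and 7 rose with IHK-44. ZWINT rose by 0.60 and 0.47 and DSN1 by 0.37 and 0.43, and SKA3 and SKA2 of the spindle-binding SKA complex fell by 0.68 and 0.49 with dCBP and by 0.49 and 0.36 with IHK-44. Of 17 condensin, cohesin and separase genes, 2 fell and 5 rose with dCBP and 1 fell and 5 rose with IHK-44. RAD21, the cohesin subunit cut at anaphase, fell by 0.48 and 0.31, while ESPL1, the separase that cuts it, rose by 0.43 and 0.37, and the condensin subunits NCAPD3 and NCAPH2 rose by 0.37 and 0.39 with dCBP and by 0.30 and 0.28 with IHK-44. Of 20 core replication genes, 3 fell and 5 rose with dCBP and 2 fell and 6 rose with IHK-44. POLA1, a DNA polymerase subunit, fell by 0.66 and 0.65 and RRM2, of ribonucleotide reductase, by 0.43 and 0.35, while GINS1 and CDC6, which act in origin firing and licensing, rose by 0.27 and 0.30 with dCBP and by 0.32 and 0.22 with IHK-44. The medians of these 5 lists lay between 0.03 and 0.18 with dCBP and between 0.04 and 0.23 with IHK-44, beside 0.06 over all genes with each.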

How the data were processed

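The 20 RNA-seq files were used as deposited. Per the file headers they give, for coding genes, an expected count, TPM and FPKM, and a normalised column. The values of that column are the authors' expected counts scaled to CPM over the coding rows. In the TPM deposited by the authors, coding rows made up 27.91% to 53.92% of the total, so CPM was used. FPKM as deposited by the authors served only to order the genes by level. The submitters' processing notes name STAR 2.5.3a, RSEM 1.3.3 and hg38, with no role stated. The labels do not spell out NT.

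The rounded expected counts went into edgeR 4.0.16 (R 4.3.3, quasi-likelihood, TMM, filterByExpr) with Benjamini-Hochberg adjustment over all genes tested and a threshold of 0.05. The model had 10 levels, DMSO with NT and each compound with both doses, at each time (13260 genes, 10 residual degrees of freedom, coefficient of variation 0.104). Doses therefore add to the spread. The dose test used the 16 treated libraries blocked by compound and time (13137 genes, with 4 degrees of freedom left), and NT against DMSO a model with a time term (13 residual degrees of freedom). Intervals of fitted changes are 95% intervals. Per-library ratios used log2(CPM + 1) for genes with a mean of at least 1 CPM, which understates changes of low genes. DESeq2 1.42.0 and limma 3.58.1 were alternatives, and Python 3.11.15 did the rest. On simulated data for dCBP at 6 h, with 200 genes changed, the test recovered 98% at a log2 change of 1 and 21.5% at 0.5. For the time dependence it recovered 76% and 3%. The simulation gave all genes the same dispersion. In the data 6038 of 13260 genes were called with dCBP at 6 h, which makes the adjusted threshold easier to pass. The simulated shares therefore do not give the power of the test in these data.

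The members and all lists were chosen with earlier results of these data known. Values were given by rule for CCNB1, CDK1, PLK1, AURKA, AURKB, BUB1, CDC20, KIF20A, TOP2A, FOXM1, MKI67 and CCNA2 and for the 4 largest falls and 4 largest rises of the mean of dCBP and IHK-44 at 6 h. Up to 4 genes of each other list with the lowest adjusted p with dCBP were also named. INCENP, MAD2L1, PTTG1, PRC1 and other single members were named after their values were seen. Genes of like level had a control mean between the 10th and 90th percentile of the members. RefSeq promoter windows were matched by symbol. BUB3, BIRC5, AURKA, FOXM1, TTK, UBE2C and TPX2 were unmatched. ChIP-seq and ChRO-seq samples were not analysed here.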

Additional observations from a re-analysis of the deposited data

Results flagged for a closer look

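In 4 cases, and in the counts they make up, the response of a gene differed between 2 h and 6 h by a test of the difference itself (the interaction of compound and time in edgeR, Benjamini-Hochberg adjusted). With IHK-44 this held for 3 of the 40 genes, beside 9.89% of all 13260 genes tested. CDC25B differed by -0.89 (SE 0.21, adjusted p = 0.0141): its change was -0.20 at 2 h and -1.09 at 6 h. CDC25C differed by 0.77 (SE 0.22, adjusted p = 0.0351), from 0.14 to 0.91, and PRC1 by 0.43 (SE 0.13, adjusted p = 0.0491). With dCBP it held for 1 of the 40 genes, beside 9.06% of all genes tested. This gene, CDC25C, differed by 0.78 (SE 0.22, adjusted p = 0.0376), from 0.05 at 2 h to 0.82 at 6 h. Over fits that left out 1 library, the value ranged from -1.0 to -0.79 for CDC25B, from 0.68 to 0.86 for CDC25C and from 0.36 to 0.52 for PRC1 with IHK-44, and from 0.58 to 1.03 for CDC25C with dCBP. Each kept its direction, but none kept an adjusted p under 0.05 in all of them.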

How the results depend on the processing

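No paired analysis was possible because the labels carry no replicate numbers that groups share. In each comparison at 6 h the smallest number of libraries per arm was 2, so leaving out 1 assumed that the lone library varies like the others, and the dose test without either time leaves no test. Counts of genes called at 6 h with A485, IHK-44 and dCBP were 6, 27 and 20 with limma, 0, 8 and 7 with DMSO or NT alone as the control, and 0, 6 and 7 over both times with a time term (6 and 7 in place of 0 at 2 h for IHK-44 and dCBP). limma gave 9 for A485 against IHK-44, 12 for A485 against JQAD, 32 for IHK-44 against JQAD and 6 for the time dependence of IHK-44 and of dCBP, and the dCBP count was 2 without the filter and with DESeq2. Counts of genes called in these other settings are given without the share over all genes. They therefore do not set the mitotic genes against other genes, and the limma counts include the shift shared by all genes. Of 80 values per compound and time, those past 1.5-fold on TPM were 2 (A485), 21 (dCBP) and 14 (IHK-44) at 2 h and 19, 24 and 5 at 6 h. These TPM values were not centred, so a shift shared by all genes is part of the counts. At 2 h the median over all genes on TPM was -0.28 and -0.43 with 100 nM and 1 uM dCBP. With IHK-44 it was -0.44 and -0.33. The mitotic genes had medians of -0.36 and -0.59 with dCBP and -0.51 and -0.43 with IHK-44. With A485 at 6 h the median over all genes was 0.32 and 0.42. On CPM, centring gave 1 for A485 and 6 for IHK-44 at 6 h, and a 2-fold threshold 0, 1 and 2 for A485, dCBP and IHK-44. Leaving out 1 library gave 0 to 4 calls for A485, 8 to 10 for IHK-44 and 8 to 27 for dCBP at 6 h. For pairs it gave 0 to 7 (A485, IHK-44), 0 to 8 (A485, JQAD), 0 to 22 (A485, dCBP), 0 to 19 (dCBP, IHK-44), 11 to 27 (dCBP, JQAD) and 14 to 16 (IHK-44, JQAD), and for the time dependence 0 to 1 (A485), 0 to 2 (IHK-44) and 0 to 9 (dCBP). Signs reversed in some settings for genes that did not pass. Of the genes given with values in every condition, those with the time term were AURKA (-0.05), BUB3 (0.02) and TOP2A (-0.00074) with IHK-44, and AURKA (-0.02), TTK (-0.02) and FOXM1 (-0.00043) with dCBP. With limma they were BUB3 (0.12) and CENPE (0.14) with IHK-44 and CCNA2 (0.02) and TOP2A (0.06) with dCBP, and with IHK-44 BUB3 was 0.01 against NT alone and CENPE 0.02 against DMSO alone. Leaving out 1 library gave, with IHK-44, -0.04 to 0.20 for AURKA, -0.03 to 0.11 for FOXM1, -0.10 to 0.01 for BUB3 and -0.07 to 0.02 for CENPE. With dCBP it gave -0.07 to 0.28 for BUB1, -0.09 to 0.15 for CCNB1, -0.01 to 0.42 for TTK, -0.27 to 0.01 for CCNA2, -0.85 to 0.14 for CDK1 and -0.35 to 0.17 for TOP2A. Other members not called that changed sign in at least 1 setting were ANLN, CENPF, ECT2, KIF23 and TPX2 with IHK-44, and ASPM, CCNB2, DLGAP5, ECT2, HMMR, KIF11, KIF23, MAD2L1, PTTG1 and TPX2 with dCBP. The causes were not tested.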
